A study of Mus musculus with 2 samples.

Results

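The respiratory chain genes described here are the nuclear and mitochondrial genes whose products build the 5 complexes of oxidative phosphorylation. They were chosen by name from the gene lists of both libraries: names made of Ndufa, Ndufb, Ndufc, Ndufs or Ndufv and a number, Sdha to Sdhd, names starting with Uqcr, Cox4 to Cox8 or Atp5, and the 13 protein genes of the mitochondrial genome, whose names start with mt-. Ndufa4l2, Cox7a1 and Cox8b were left out. The rule gave 96 of the 30614 genes listed in either library, 83 nuclear and 13 mitochondrial. All 96 were listed in the inguinal library and 95 in the interscapular one, which did not list Cox8c. The names are the older symbols of the deposited lists (Atp5a1, Atp5b and so on), the pseudogene-like entry Cox5b-ps is a member by its name, and Ndufa4, once counted as a complex I subunit, was placed with complex IV.

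The cells were stromal vascular cells, the fraction of adipose tissue left after the fat-filled adipocytes are removed, from inguinal white (iWAT) and interscapular brown (iBAT) adipose tissue of wild-type C57BL/6N mice aged 8 to 12 weeks. Tissue of several mice was pooled per depot, and the cells were grown to 80% confluency in high-glucose medium. Each depot gave 1 BD Rhapsody single-cell library that held 4 tagged samples, labelled untreated, FGF1, FGF2 and FGF8, with fibroblast growth factor given at 5.5 nM for 48 h and 10000 cells loaded per sample. The tag of each cell was not in the tables used here, so the treatments cannot be told apart and every value below is a mixture of treated and untreated cells. The study's methods for this experiment do not list FGF8 and give another age range, so the makeup of the mixture is not settled, and the labels were followed. With 1 library per depot there is no replicate, and the depot and the library cannot be told apart. No p-value is given, and the 95% intervals (exact Poisson for a level, exact Clopper-Pearson for a ratio or share) cover counting error only.

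Complexes I to IV, in the inner mitochondrial membrane, pass electrons from NADH and succinate to oxygen, and complexes I, III and IV pump protons across the membrane as they do so. Complex V, ATP synthase, lets the protons flow back and makes ATP. Mitochondrial DNA encodes a few core subunits of complexes I, III, IV and V, while complex II and all other subunits are nuclear and imported. Brown adipocytes hold many mitochondria and can run the chain without making ATP through uncoupling protein 1, and muscle is another tissue rich in respiratory chain.

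Levels are given as CPM, the unique molecular identifiers (UMIs, each standing for 1 captured RNA molecule) of a gene summed over cells, per 1000000 UMIs of the same cells. The assay reads RNA near its poly(A) end, so the values were not scaled by gene length, and a level of 1 gene set beside that of another also carries how well each is captured. A cell was kept if it had over 200 detected genes but under 7500, and less than 30% mt- UMIs, which left 29744 of 29962 (99.3%) in iWAT and 28215 of 28636 (98.5%) in iBAT. The median depth was 16138 UMIs per cell in iWAT and 27401 in iBAT before this filter, and 8 barcode labels occurred in both libraries. Kept cells were placed in a class when they held at least 1 UMI of a marker: Pdgfra (preadipocytes and fibroblasts), Adipoq (adipocytes), Epcam (epithelium), Myod1 (cells of the muscle lineage) or Ptprc (leukocytes). Adipoq took precedence over Pdgfra, and cells with markers of several lineages went into no class. iWAT held 15583 Pdgfra-, 4508 Epcam- and 124 Ptprc-positive cells, and iBAT held 25201 Pdgfra-, 317 Adipoq-, 174 Myod1- and 136 Ptprc-positive cells. In no class were 7626 iWAT cells (25.6%) without a marker UMI and 1870 of several lineages, and 1931 (6.84%) and 448 in iBAT. The unmarked cells were shallower than the Pdgfra-positive ones (median 14748 against 18124 UMIs in iWAT, 18714 against 27797 in iBAT). Their mitochondrial sums were 66660 against 58384 CPM and 72373 against 64613. Their nuclear sums were 14953 against 13979 and 15336.5 against 15163. Classes under 50 cells were not compared (30 Adipoq- and 3 Myod1-positive cells in iWAT, 8 Epcam-positive cells in iBAT).

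The classes were checked against markers of their lineage other than the 5 genes that define the classes, where a gene was called when it differed 1.5-fold or more and reached 50 CPM on at least 1 side. Against the Pdgfra-positive cells of the same library, 7 of 7 tested epithelial markers were higher in the Epcam-positive cells, 7 of 7 muscle markers in the Myod1-positive cells and 8 of 8 leukocyte markers in the Ptprc-positive cells of each library. None of these markers reached 50 CPM in the Pdgfra-positive cells, so they were tested only through the class where they are high, and the counts describe the classes without testing them. In the Adipoq-positive cells 5 of 5 tested adipocyte markers were higher, of which Fabp4 and Lpl alone reached 50 CPM in the Pdgfra-positive cells, and 209 of the 317 cells held a single Adipoq UMI. The 82 cells with 3 or more Adipoq UMIs, where 6 of 6 adipocyte markers were higher (again Fabp4 and Lpl alone tested through both sides) and Pdgfrb, Col1a1 and Col1a2 were lower and Dcn higher, are therefore also given on their own. This comparison was added after the data had been seen, although a minimum of 3 UMIs was among the alternatives set earlier. Some markers of other lineages were also called higher. In the Epcam-positive cells this was Sox10 of the Schwann cell list (103 CPM against 0.906). In the Myod1-positive cells it was Abcc9 of the mural list (54.5 against 6.85) and Car3 of the adipocyte list (67.7 against 0.122). Fabp4 and Lpl were called lower there, and the 8 adipocyte markers other than Adipoq summed to 137 against 409. In the 82 Adipoq cells it was Abcc9 (108 against 6.85). In the Ptprc-positive cells of iWAT it was Lpl (612 against 243), with 6 of the 8 adipocyte markers at 0 UMIs. In those of iBAT it was Lpl (1786 against 317) and Fabp4 (237 against 90.9). The 8 markers summed to 2025 against 409 there, with 3 of them at 0 UMIs. The part of other cell types in the results was not tested. Neat1, a long RNA retained in the nucleus, was called higher in every class against its Pdgfra-positive cells, with 294 CPM in the 82 Adipoq cells and 229 in the Myod1-positive cells against 71.3, and in iBAT against iWAT (72.7 against 28.7 over all kept cells). In the Epcam- and Ptprc-positive cells of iWAT and between the depots over all kept cells, Neat1 reached 50 CPM only on the side where it was higher. Malat1, another nuclear RNA, was also called higher in the 82 Adipoq cells (1681 against 1083) but lower in the Ptprc-positive cells of iBAT (656 against 1083), and was not called in the other classes against their Pdgfra-positive cells. The part of nuclear RNA in the results was not tested.

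Some members share regulatory letters in their promoters. Nuclear respiratory factor 1 (NRF1) and the ETS family factor GABP are known activators of nuclear respiratory chain genes. The 250 bases before the start site, from RefSeq on GRCm38.p6, were found for 67 of the 83 nuclear members. The NRF1 letters (GCGC, any base, then TGCGC), searched like all letters here on both strands, stood in 13 of the 67 windows (19.4%) against 4.23% of 27025 genes. The ETS letters CCGGAAG stood in 12 windows (17.9%) against 7.83%. Windows of Cox6a1, Sdhd and Atp5h held both. The ERR letters AAGGTCA stood in 7.46% of member windows against 4.7% of all, the YY1 letters AAGATGGCG in 1.49% against 0.71%, the MyoD E-box letters CAGCTG in 7.46% against 14.7%, CCAAT in 43.3% against 37.5%, and the GC box letters GGGCGG, whose Cs and Gs can overlap those of the NRF1 and ETS letters, in 37.3% against 35.4%. A match is a description and not a binding site. These 6 stretches are shown because the results below turn on their genes, with the NRF1 and ETS letters in capitals, 5′ to 3′ on the strand of the gene.
Cox6a1 (chr5:115348959-115349135, minus strand): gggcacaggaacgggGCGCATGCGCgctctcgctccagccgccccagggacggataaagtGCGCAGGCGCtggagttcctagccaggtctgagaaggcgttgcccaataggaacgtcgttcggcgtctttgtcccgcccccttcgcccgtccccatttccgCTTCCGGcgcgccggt
Atp5k (chr5:108434425-108434464, minus strand): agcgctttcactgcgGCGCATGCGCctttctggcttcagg
Ndufs6 (chr13:73328483-73328513, minus strand): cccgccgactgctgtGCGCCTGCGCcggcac
Ndufa8 (chr2:36049344-36049383, minus strand): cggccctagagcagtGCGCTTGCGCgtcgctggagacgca
Sdha (chr13:74350241-74350353, minus strand): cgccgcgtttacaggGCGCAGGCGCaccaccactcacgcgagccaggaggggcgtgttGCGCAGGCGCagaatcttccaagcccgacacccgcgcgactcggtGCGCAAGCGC
Sdhd (chr9:50603874-50603943, minus strand): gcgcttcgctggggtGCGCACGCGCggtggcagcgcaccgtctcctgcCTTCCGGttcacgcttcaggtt

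The mitochondrial genes lie close together, and neighbours on 1 strand overlap. In the GRCm39 sequence mt-Atp6 starts inside mt-Atp8 (chrM:7927-7969) and mt-Nd4 inside mt-Nd4l (chrM:10167-10173). Each pair is known to be read from 1 shared messenger RNA, and a read within the shared stretch cannot be given to either gene. The stretches are printed with the first codon of the downstream gene and the last 3 bases of the upstream gene in capitals.
mt-Atp8 and mt-Atp6: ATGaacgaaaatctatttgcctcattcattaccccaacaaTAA
mt-Nd4l and mt-Nd4: ATGcTAA

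In the Pdgfra-positive cells, the most numerous class of both cultures, the nuclear members together gave 13979 CPM in iWAT and 15163 in iBAT, and the 13 mitochondrial genes gave 58384 and 64613. Mitochondrially encoded RNA thus outnumbered the RNA of the 83 nuclear members, by 4.18 UMIs per nuclear UMI in iWAT and 4.26 in iBAT. Complexes IV and V took the largest nuclear sums (4079.5 and 4496 CPM in iWAT, 4202 and 5016 in iBAT). The 36 nuclear complex I genes gave 3716 and 4063, the 8 nuclear complex III genes 1292 and 1450, and the 4 complex II genes, all nuclear, 396 and 431. Among the mitochondrial genes complex IV came first with 29648 in iWAT and 28320 in iBAT, then complex I with 14411 and 20045. These sums add genes of different number and capture, so they describe the makeup of the RNA and not the amount of each complex.

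**Figure D1:**
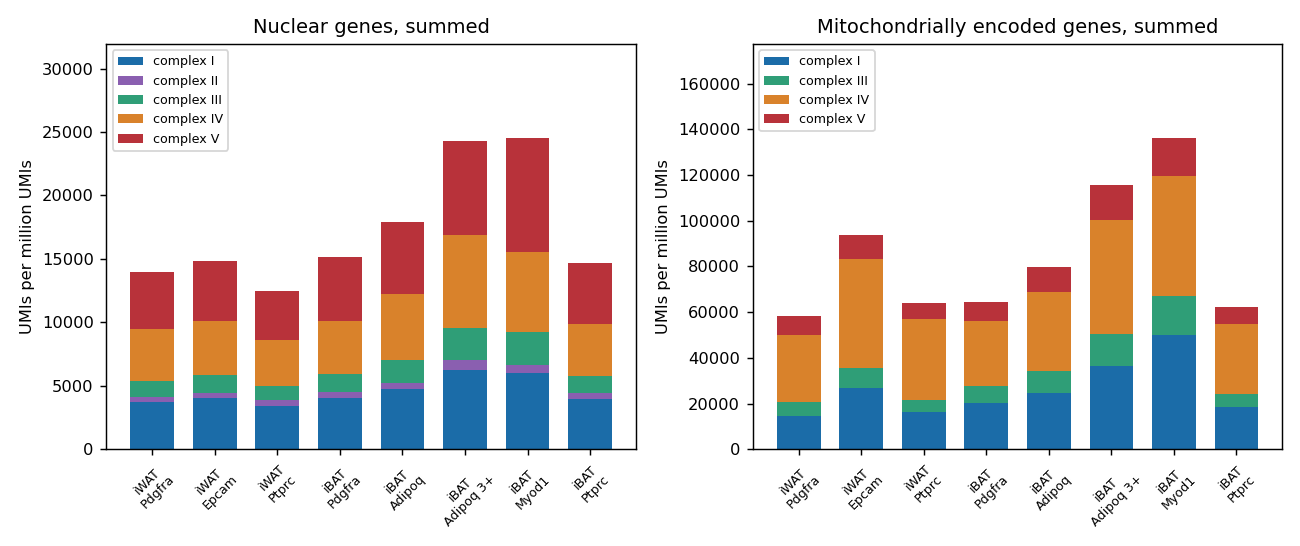
Summed level in CPM (linear axis from 0) of the nuclear members, left, and of the 13 mitochondrial genes, right, in 8 classes of cells, with the complexes stacked in colour. The nuclear sums lie between 12470 and 24563 and the mitochondrial sums between 58384 and 136429, and the Myod1-positive cells and the cells with 3 or more Adipoq UMIs (Adipoq 3+) stand highest in both.

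Single nuclear members reached up to 628 CPM (iWAT) and 716 CPM (iBAT) in this class. The members with the highest level of their complex were the same in both libraries over all kept cells: Ndufa2 for complex I, Sdhd for complex II, Uqcrh for complex III, Cox7c for complex IV and Atp5g3, a gene of the membrane ring of ATP synthase, for complex V. In the Pdgfra-positive cells of iBAT these stood at 306.6, 143.5, 343, 644 and 716 CPM. Of all 96 members, 14 were below 50 CPM in the Pdgfra-positive cells of every library that listed them. They were the core complex I subunits Ndufs3, Ndufs7, Ndufs8 and Ndufv1, the accessory subunits Ndufa11, Ndufb2 and Ndufb8, mt-Nd6, and Cox4i2, Cox5b-ps, Cox6a2, Cox6b2, Cox7b2 and Cox8c, which are further copies of complex IV genes.

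The first comparison asks how the chain differs between preadipocytes of a brown and a white depot. In the Pdgfra-positive cells the summed level of the nuclear members was 1.08-fold higher in iBAT (95% interval 1.08 to 1.09), and that of the mitochondrial genes 1.11-fold. Over all kept cells the levels were 15278 and 14333 CPM for the nuclear members, a ratio of 1.07, and 65597 and 64897 for the mitochondrial genes, a ratio of 1.01. Neither direction held in every alternative: the nuclear log2 ratio of 0.092 was -0.0012 at like depth, and the mitochondrial one of 0.0155 was -0.097 as a mean over cells and -0.0151 with TMM scaling. Of the 95 members listed in both libraries, 82 passed the filter. Only mt-Nd3 was called higher in iBAT, both over all kept cells and in the Pdgfra-positive cells, and none was called lower. Among all genes tested over all kept cells, 8.96% were called higher and 8.19% lower. In the Pdgfra-positive cells 8.21% were called higher and 8.19% lower. The median log2 ratio of the tested members was 0.11 in Pdgfra-positive cells against 0.06 for all genes tested. Cell type markers also differed. In the Pdgfra-positive cells Col1a1, Col1a2, Dcn and Col3a1 were called lower in iBAT, and Pdgfra and Fabp4 higher. The stromal list summed to 12200 CPM there against 28708 in iWAT. Over all kept cells the epithelial list summed to 17.6 against 554, Col1a1, Col1a2 and Dcn were lower, and Pdgfra, Fabp4, Lpl and Lyz2 were higher. Their part in the depot ratios was not tested.

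At the level of complexes the nuclear sums of all 5 were slightly higher in iBAT. In Pdgfra-positive cells the iBAT to iWAT ratio of the nuclear sum was 1.09 for complex I, 1.09 for complex II, 1.12 for complex III, 1.03 for complex IV and 1.12 for complex V. For complex IV the sum and the single genes differed in sign, since 5 of its 12 tested genes were above and 7 below an equal level (median log2 ratio -0.01). The mitochondrial genes were less even. Their ratio was 1.39 for complex I, 1.25 for complex III and 1.05 for complex V, and 0.955 for complex IV (0.954 to 0.956). The deeper library was iBAT, and depth moved with the result. Cells of both depots limited to the same range of depth (17939 to 27752 UMIs) gave a nuclear log2 ratio of 0.01, against 0.12 without the limit, and a mitochondrial one of 0.26, against 0.15.

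The nuclear members that differed most between the depots were named by rank. Ndufa4, which was first described in complex I and sits in complex IV, had 357 CPM in iBAT and 239 in iWAT over all kept cells (log2 ratio 0.58, just under the 1.5-fold line), and 356 and 242 in the Pdgfra-positive cells. Uqcr11, a small complex III subunit, followed with 220.4 and 161 (log2 ratio 0.45). Atp5k, a subunit of ATP synthase dimers, had 302 and 225 (0.43), the complex I accessory subunit Ndufa2 307 and 235 (0.39), and Ndufb7 96.6 and 74.1 (0.38). At the other end were Ndufa6, another complex I accessory subunit, with a log2 ratio of -0.34, then Uqcr10, Ndufv3, Ndufb6 and Cox5a. In the Pdgfra-positive cells Ndufa6 had 91.4 in iBAT and 114 in iWAT, and Ndufv3, which lies at the NADH-oxidizing end of complex I, 176 and 218. The counting intervals of these ratios lay away from an equal level, but the spread between libraries of 1 depot is not known.

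Succinate dehydrogenase, which also serves the citric acid cycle, differed by less than the 1.5-fold line. Sdha, the flavoprotein, had 103 CPM in iBAT and 88 in iWAT Pdgfra-positive cells, Sdhb, the iron-sulfur subunit, 54.5 and 46.7, and the membrane anchors Sdhc and Sdhd 130.4 and 124, and 143.5 and 137. The 4 log2 ratios ran from 0.07 to 0.22.

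**Figure D2:**
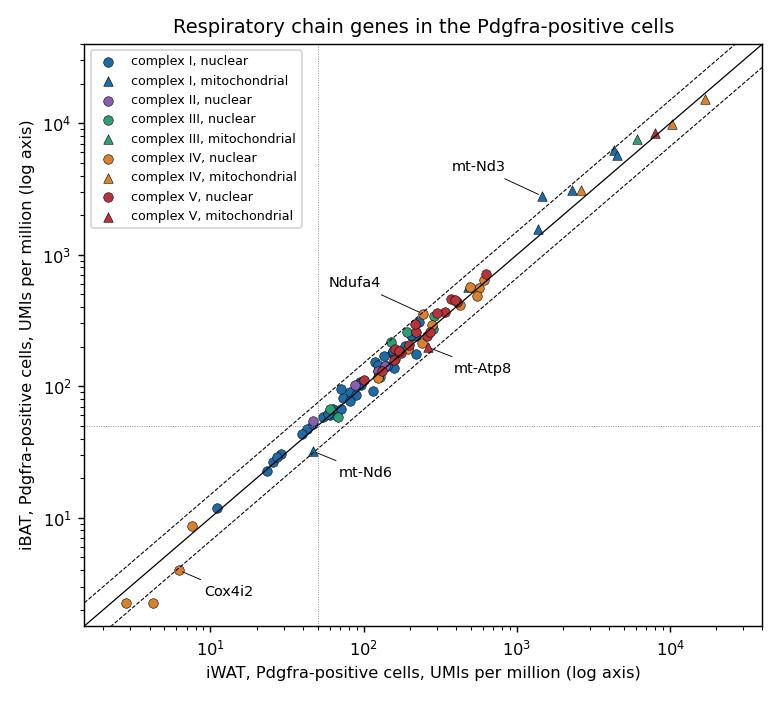
Level of each member listed in both libraries in the Pdgfra-positive cells of iWAT (horizontal) and iBAT (vertical), in CPM on log axes, coloured by complex, with circles for nuclear and triangles for mitochondrial genes. The solid line marks equal levels, the dashed lines 1.5-fold and the dotted lines 50 CPM. mt-Nd3 lies above the upper dashed line, Ndufa4 just inside it, and mt-Nd6 and Cox4i2 are lower in iBAT but under 50 in both libraries.

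The mitochondrial genes did not move together between the depots. In the Pdgfra-positive cells mt-Nd3, a complex I subunit, had 2800 CPM in iBAT and 1451 in iWAT (log2 ratio 0.95), and over all kept cells 2830 and 1565 (0.85). mt-Nd1 had 6245 and 4310 (0.53), mt-Nd2 3127 and 2274 (0.46), mt-Nd4 5702 and 4479 (0.35) and mt-Cytb, the sole mitochondrial gene of complex III, 7605 and 6103 (0.32). mt-Co1, which holds the site of oxygen reduction and is the most abundant member, was lower in iBAT with 15340 against 16819 (-0.13). mt-Co2 had 9865 and 10226 (-0.05), while mt-Co3 had 3114 and 2603 (0.26). mt-Atp8 had 198 and 263 (-0.41) although its partner mt-Atp6 had 8446 and 7959 (0.09). mt-Nd6, the only member encoded on the opposite strand, had 32.0 and 46.8 (-0.55) and was under the filter. The other mitochondrial genes are known to be cut from shared precursors, and these differences between them describe the captured RNA only.

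The second comparison asks whether cells with an adipocyte marker carry more of the chain. In the 317 Adipoq-positive cells of iBAT the nuclear members summed to 17895 CPM and the mitochondrial genes to 79568, which is 1.18-fold (1.17 to 1.19) and 1.23-fold the Pdgfra-positive level of the same library. In cells under 15% mt- UMIs the log2 ratios were 0.15 and 0.18, against 0.24 and 0.30 without that limit. The limit is set on the UMIs of the mitochondrial members themselves. It removes the cells with the largest mitochondrial share, so a smaller mitochondrial ratio in a class rich in such cells is built in. Of 84 tested members 83 lay above an equal level, but none was called at 1.5-fold in either direction, against 4.7% of all tested genes called higher and 0.68% called lower. Atp5g2, with 409.5 against 458, was the exception in direction. The highest was Ndufa1, a complex I membrane subunit, with 336 against 239 (log2 ratio 0.49).

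The 82 cells with 3 or more Adipoq UMIs stood apart from the rest of the class. Their nuclear sum was 24250 CPM and their mitochondrial sum 115734, 1.60-fold (1.59 to 1.61) and 1.79-fold (1.78 to 1.80) the Pdgfra-positive level. The 235 cells with 1 or 2 Adipoq UMIs stood at 15788 and 67578, close to the Pdgfra-positive cells at 15163 and 64613. In the 82 cells 55 of 85 tested members were called higher and none lower, where 16.0% of all 3963 tested genes were called higher and 19.4% lower. Their median log2 ratio was 0.68, against -0.15 over all tested genes. Of the members that reached 50 CPM in the Pdgfra-positive cells themselves, so not only through the adipocyte side, 53 of 82 were called higher. The median depth of the 82 cells, 26802.5 UMIs, was close to that of the Pdgfra-positive cells, 27797.

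Members of all 5 complexes were among them. All 4 complex II genes were called higher, with log2 ratios from 0.70 for Sdhb (88.3 against 54.5 CPM) to 0.86 for Sdha (186 against 103). Of complex III 6 of 8 were called, with Uqcr11 the highest member of all (502 against 217, log2 ratio 1.21) and Uqcrfs1, the Rieske iron-sulfur protein, at 247 against 117 (1.07). Of complex IV 10 of 12 were called, among them Cox6b1 (857 against 416, 1.04), Cox8a (948 against 485, 0.97), Cox4i1 (565 against 289.5, 0.96), Ndufa4 (690.3 against 356, 0.96) and Cox6a1 (1074 against 557, 0.95). Complex I had 16 of 32 (14 of the 29 that reached 50 CPM in the Pdgfra-positive cells), led by Ndufa1 (512 against 239, 1.10) and Ndufv3 (374 against 176, 1.09), and complex V 7 of 17, led by Atp5o, part of the stalk (773 against 363, 1.09). The 12 tested mitochondrial genes were all called, within a narrow range from 0.67 for mt-Nd3 to 0.97 for mt-Nd4. Atp5g2 was again below an equal level (381 against 458, -0.27) and Ndufa3 near it (184 against 178.5, 0.04). Of the 50-base words in the last 400 transcript bases of Atp5g2, 62.7% also occur in 3 other annotated genes, so its count is uncertain.

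The cells that passed a stricter limit on mt- UMIs gave a smaller count. The limit acts on the mitochondrial members themselves, and nuclear and mitochondrial shares rose together across the 82 cells (Spearman rho 0.634). A drop in the sums and the count was thus built into the limit, which is no independent check of them. With cells under 15% mt- UMIs only, 64 of the 82 cells were left and 18 of 84 tested members (21.4%) were called higher, where 13.4% of all tested genes were. The log2 ratios of the sums were then 0.46 for the nuclear and 0.56 for the mitochondrial genes, against 0.68 and 0.84. At 2-fold in place of 1.5-fold, 6 of 85 members (7.06%) were called, below the 9.46% of all tested genes.

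The third comparison set the Myod1-positive cells of iBAT against the Pdgfra-positive cells of the same culture. Among their 7 muscle markers called higher were Myog (3509 CPM against 0.661), Mymk (1719 against 0.454) and Actc1 (5513 against 2.09). Myf5, also on the list, did not reach the filter, and the stage of these muscle cells was not tested. The 174 Myod1-positive cells of iBAT had a nuclear sum of 24563 CPM and a mitochondrial sum of 136429, 1.62-fold (1.61 to 1.63) and 2.11-fold (2.10 to 2.12) the Pdgfra-positive level. Of 88 tested members 63 were called higher and none lower, among them all 13 mitochondrial genes, where 21.2% of all 4205 tested genes were called higher and 33.3% lower. The median log2 ratio was 0.74 for the members and -0.18 for all tested genes. Counting only the 82 members that reached 50 CPM in the Pdgfra-positive cells, 57 were called higher. These held 12 of the mitochondrial genes, as mt-Nd6 was tested only through the Myod1 side. Of the 95 listed members, 7 were under the filter in this comparison: Cox4i2, Cox5b-ps, Cox6b2, Cox7b2, Ndufa11, Ndufb2 and Ndufs8.

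By complex, 21 of 33 nuclear complex I genes were called higher, 2 of 4 of complex II, 6 of 8 of complex III, 8 of 13 of complex IV and 13 of 17 of complex V. Of those that reached 50 CPM in the Pdgfra-positive cells the counts were 17 of 29 for complex I and 7 of 12 for complex IV. Uqcrfs1 had 303 CPM against 117 (log2 ratio 1.37), Atp5k 727 against 298 (1.29), the iron-sulfur subunit Ndufs7 52.7 against 22.5 (1.23, tested only through the Myod1 side), Uqcr11 494 against 217 (1.19), Atp5g3 1570 against 716 (1.13) and Cox5a 422 against 214 (0.98). In complex II Sdhd had 252 against 143.5 (0.81) and Sdha 155 against 103 (0.59), while Sdhb (0.51) and Sdhc (0.48) missed the line. Members without a call included Cox8a (530.2 against 485, 0.13), Ndufa2 (329 against 307, 0.10), Ndufa8 (95.4 against 90.5, 0.08) and Ndufa3 (152 against 178.5, -0.24). Of the genes whose promoter stretches are shown above, Atp5k, Ndufs6 (101 against 61.6, 0.72), Sdha and Sdhd were thus called and Cox6a1 and Ndufa8 were not. The 12 tested members with the NRF1 letters had a median log2 ratio of 0.61 and the 50 without them 0.70, and in the 82 Adipoq cells the medians were 0.56 (12 members) and 0.66 (49 members).

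These counts moved with the choice of cells. With cells under 15% mt- UMIs, 123 Myod1-positive cells remained and 38 of 86 members (44.2%) were called higher, where 20.5% of all tested genes were. This limit too acts on the mitochondrial members themselves. Nuclear and mitochondrial shares also rose together across these cells (Spearman rho 0.588), so a drop was built in. When cells with markers of several lineages were kept, the class held 368 cells in place of 174. Of 85 members 28 (32.9%) were then called higher, against 12.1% of all. The log2 ratios of the sums were 0.48 for the nuclear and 0.70 for the mitochondrial genes, in place of 0.70 and 1.08. Against Pdgfra-positive cells within the middle range of the depth of the class, 68 of 88 members were called higher, against 20.8% of all. The depth of the Myod1-positive cells was lower (median 19275.5 against 27797 UMIs), and stromal markers moved in the other direction: 5 of 5 tested stromal markers other than Pdgfra were called lower, with a summed level of 1731 CPM against 11915 for the list without Pdgfra. In sums over cells such as these, fewer copies per cell and fewer cells with any copy cannot be told apart.

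**Figure D3:**
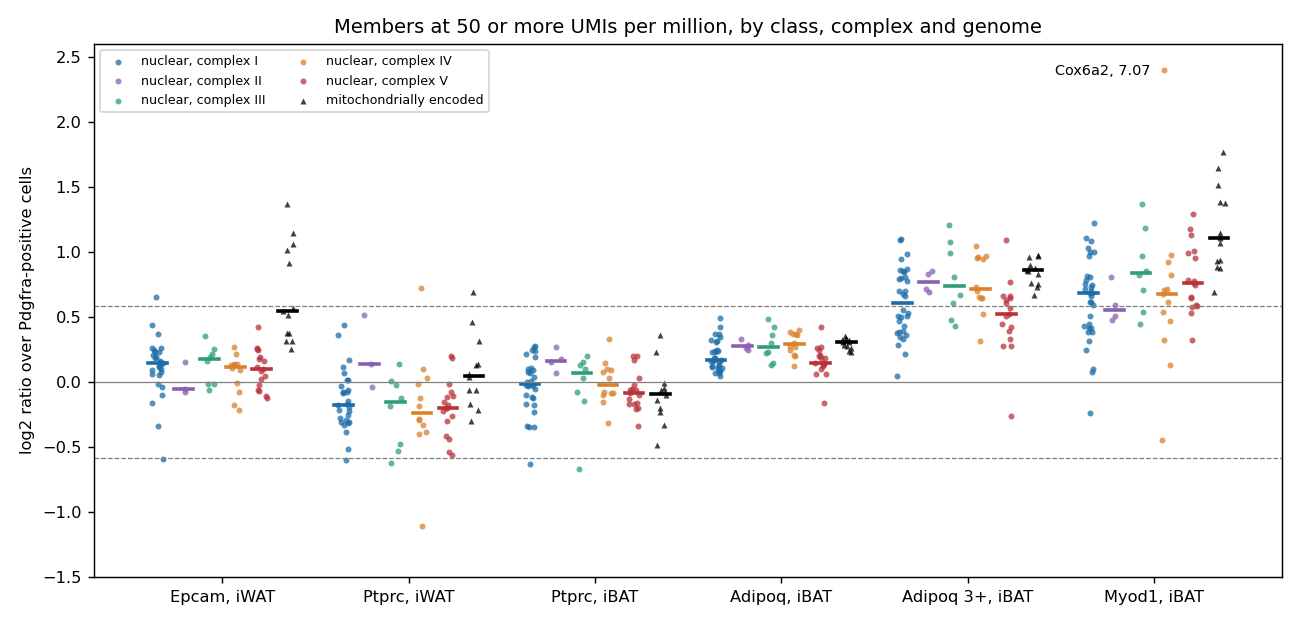
Log2 ratio of each tested member in 6 classes over the Pdgfra-positive cells of the same library, by complex in colour, with mitochondrial genes as black triangles. Bars mark medians, the solid line an equal level and the dashed lines 1.5-fold. Cox6a2 in the Myod1-positive cells is drawn at the top edge with its value of 7.07, and the Myod1 and Adipoq 3+ cells lie mostly above the upper dashed line while the Ptprc classes lie around or below 0.

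The member that separated the Myod1-positive cells most was Cox6a2, the muscle and heart form of a complex IV subunit whose common form is Cox6a1. Cox6a2 had 303 CPM there and 2.25 in the Pdgfra-positive cells (log2 ratio 7.07, 95% interval 6.96 to 7.19), and it passed the filter only through the Myod1 side. Cox6a1 was the lowest tested member of the class, with 408 against 557 (-0.45), though short of a call. Cox6a2 made up 42.6% (40.6 to 44.6) of the UMIs of the pair in the Myod1-positive cells. In every other class its share was 1.20% or less: 0.403% in the Pdgfra-positive cells of iBAT, 0.735% in those of iWAT, 0.223% in the Epcam-positive cells, and 1.12% and 1.20% in the Ptprc-positive cells of iBAT and iWAT. In the 82 cells with 3 or more Adipoq UMIs it had 0 UMIs beside 2494 of Cox6a1, which allows a share of up to 0.120% (3 counts; the exact 95% interval reaches 0.148%).

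The muscle form was found in most cells of the class, but unevenly. Of the 174 Myod1-positive cells 106 (60.9%) held at least 1 Cox6a2 UMI, up to 47 in a cell, and the 10 cells with most held 357 of the 1030 UMIs. In the Pdgfra-positive cells of iBAT 3.69% held a UMI and none more than 10, and in those of iWAT, at a lower median depth, 5.75%. The 174 cells are 0.617% of the kept iBAT cells and held 1030 of its 3284 Cox6a2 UMIs. Over all kept cells the log2 ratio of iBAT over iWAT was thus 0.13 for Cox6a2, whereas within Pdgfra-positive cells it was -0.90, at levels under the filter in both libraries.

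**Figure D4:**
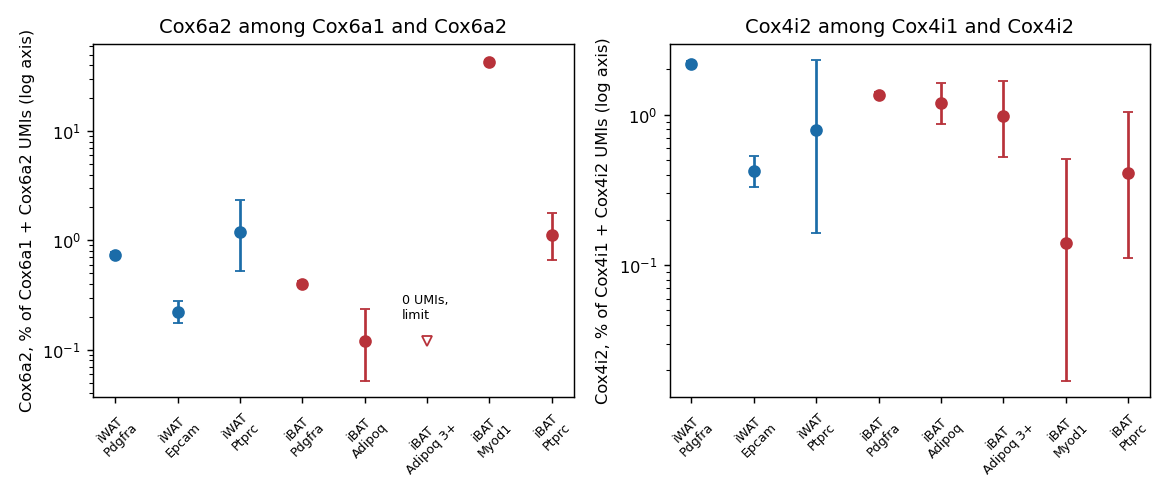
Share of Cox6a2 among the UMIs of Cox6a1 and Cox6a2, left, and of Cox4i2 among those of Cox4i1 and Cox4i2, right, in percent on log axes, per class (blue iWAT, red iBAT), with exact 95% intervals for counting error. The Myod1-positive cells stand at 42.6% on the left and at 0.140% on the right, and the open triangle marks the limit for 0 UMIs.

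Other pairs of complex IV genes shifted by less. Cox4i2, the form of subunit 4 tied to lung and low oxygen, made up 2.19% of Cox4 UMIs in the iWAT and 1.36% in the iBAT Pdgfra-positive cells, 0.423% in the Epcam-positive cells and 0.140% in the Myod1-positive cells, there from 2 UMIs. Its share in the 82 Adipoq cells was 0.982% (0.524 to 1.67). Cox6b2, the testis form, was 1.75% and 2.02% of its pair in the Pdgfra-positive cells and 0.371% in the Myod1-positive cells. Cox7a2l, which helps join complexes III and IV, was 45.1% of the Cox7a2 and Cox7a2l UMIs in iWAT and 45.4% in iBAT Pdgfra-positive cells, 40.4% (38.1 to 42.8) in the Myod1-positive and 39.7% (36.9 to 42.6) in the 82 Adipoq cells. Cox7b2 stayed at 0.0281% or less of its pair in every class where it had a UMI, and Cox8c had 3 UMIs in all of iWAT. Cox5b-ps, which shares 56.7% of its end words with Cox5b, was at 2.21% of that pair in iWAT and 1.90% in iBAT.

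The fourth comparison concerns the Epcam-positive cells of the inguinal culture. There the nuclear members stood at 14834 against 13979 CPM in the Pdgfra-positive cells (1.06-fold), while the mitochondrial genes stood at 93716 against 58384 (1.61-fold, 1.60 to 1.61). This gave 6.32 mitochondrial UMIs per nuclear member UMI against 4.18. Of 81 tested members 6 were called higher and 1 lower, where 13.5% of all 3949 tested genes were called higher and 17.4% lower. All 13 mitochondrial genes were above an equal level, though mt-Nd6 was tested only through the Epcam side. Of them 5 were called: mt-Nd5 (3537 against 1367, log2 ratio 1.37), mt-Nd4l (1068 against 482, 1.15), mt-Nd4 (9350 against 4479, 1.06), mt-Nd2 (4607 against 2274, 1.02) and mt-Co1 (31660 against 16819, 0.91). The summed ratio was 1.85 for mitochondrial complex I, 1.61 for complex IV, 1.48 for complex III and 1.25 for complex V.

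Among the nuclear genes Ndufs6, an accessory complex I subunit, was the sole member called higher (91.1 against 58.1 CPM, log2 ratio 0.65), and Ndufv3 the sole one called lower (145 against 218, -0.59). Atp5e (233 against 174, 0.42) and Ndufb1 (209 against 154, 0.44) came next. The Epcam-positive cells were shallower (median 11204.5 against 18124 UMIs), and shallow cells carried a larger mitochondrial share in this library (74221 CPM in the shallowest and 53356 in the deepest of 4 equal depth groups of Pdgfra-positive cells). Against Pdgfra-positive cells limited to the middle range of depth of the class, the mitochondrial log2 ratio was 0.49, against 0.68 without the limit. The nuclear one was 0.16, against 0.09. Of 81 tested members 6 were called higher and 1 lower there. Without the limit 13.5% of all tested genes were called higher and 17.4% lower, and the shares with the limit are not given here.

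The last comparison concerns the Ptprc-positive cells. In iWAT their nuclear sum was 12470 CPM (0.892 of the Pdgfra-positive level, 0.879 to 0.905) and their mitochondrial sum 63998 (1.10-fold, 1.09 to 1.10), and in iBAT 14645 (0.966, 0.957 to 0.975) and 62060 (0.960, 0.956 to 0.965). The iWAT cells were shallower than the Pdgfra-positive ones (median 10852 against 18124 UMIs), and against Pdgfra-positive cells of like depth their mitochondrial log2 ratio was -0.09, against 0.13 without that limit. In iBAT the nuclear log2 ratio of -0.050 turned to 0.035 at like depth, 0.036 with cells of several lineages kept and 0.014 with TMM scaling, which also turned the mitochondrial one from -0.058 to 0.0058, so no direction is given for these sums. With cells of several lineages kept, the class held 296 cells in iBAT in place of 136, and 187 in iWAT in place of 124. In iWAT 2 of 80 tested members were called higher and 3 lower, where 22.8% of all tested genes were called higher and 29.2% lower. In iBAT none of 83 was called higher and 2 lower, against 21.1% and 27.8%. Ndufa7 was called lower in both libraries, with 135 against 204.5 in iWAT (log2 ratio -0.60) and 160 against 247 in iBAT (-0.63). The iBAT call was lost at like depth and with cells of several lineages kept, where no member was called lower in iBAT and 1 was in iWAT. In iWAT the others were Cox5a (398 against 241, 0.72) and mt-Nd5 (2214 against 1367, 0.70), called higher, and Ndufa4 (112 against 242, -1.11) and Uqcrq (184 against 283, -0.62), called lower. In iBAT Cox5a and mt-Nd5 had log2 ratios of 0.33 and 0.36, Ndufa4 -0.15 and Uqcrq -0.15. The other iBAT gene was Uqcrh (216 against 343, -0.67), a complex III hinge protein whose transcript end shares 13.7% of its words with 258 other genes. Complex II was above the Pdgfra-positive level in both libraries, 1.17-fold (1.08 to 1.26) in iWAT and 1.11-fold (1.06 to 1.17) in iBAT.

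The Ptprc-positive cells of the depots were also set against each other, a comparison with alternatives added after the data had been seen. The nuclear sum was 1.17-fold higher in iBAT (1.15 to 1.19) and the mitochondrial sum 0.970 of the iWAT level (0.962 to 0.977). Of 82 tested members 6 (7.32%) were called higher and none lower, where 11.8% of all tested genes were called higher and 15.1% lower, so the count higher lay below the background. They were Ndufa4 (320 against 112 CPM, log2 ratio 1.51), Atp5k (335 against 193, 0.80), Ndufv2, a complex I subunit of the NADH-oxidizing end (182 against 113, 0.69), Ndufa2 (299.9 against 187, 0.68), Uqcr11 (206 against 133, 0.63) and mt-Nd3 (1997 against 1287, 0.63). The cells of iBAT were deeper (median 21002.5 against 10852 UMIs), and the range of depth that both shared left fewer than 50 cells in a library, so no value at like depth is given. Markers also differed. Fabp4 and Lpl were called higher in iBAT (adipocyte list 2025 against 637 CPM), and Col1a1, Col1a2, Col3a1 and Malat1 lower. Of the 9 leukocyte markers Cd68 was called higher and Ptprc, C1qa and Cd52 lower. Their part in the result was not tested.

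The 13 mitochondrial genes differed in how far they stood above the Pdgfra-positive level. In the 82 Adipoq cells the tested genes lay between 0.67 and 0.97, and mt-Nd6, under the filter there, was at 0.59. The Epcam-positive cells spanned 0.25 for mt-Nd6 to 1.37 for mt-Nd5, and the Myod1-positive cells 0.70 for mt-Nd6 to 1.77 for mt-Nd5. Without mt-Nd6 these last ranges began at 0.31 and 0.87. In the Myod1-positive cells mt-Nd5 had 5336 CPM against 1566, mt-Nd4l 1794 against 572 (1.65), mt-Nd2 8957 against 3127 (1.52), mt-Nd4 14792 against 5702 (1.38) and mt-Atp8 515 against 198 (1.38). mt-Co3 (5703 against 3114, 0.87), mt-Co1 (28301 against 15340, 0.88), mt-Co2 (0.93) and mt-Atp6 (0.94) were at the low end. In the Epcam-positive cells mt-Co2 and mt-Atp6, at 0.31 each, and mt-Co3, at 0.37, were again low, but mt-Co1 was at 0.91.

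**Figure D5:**
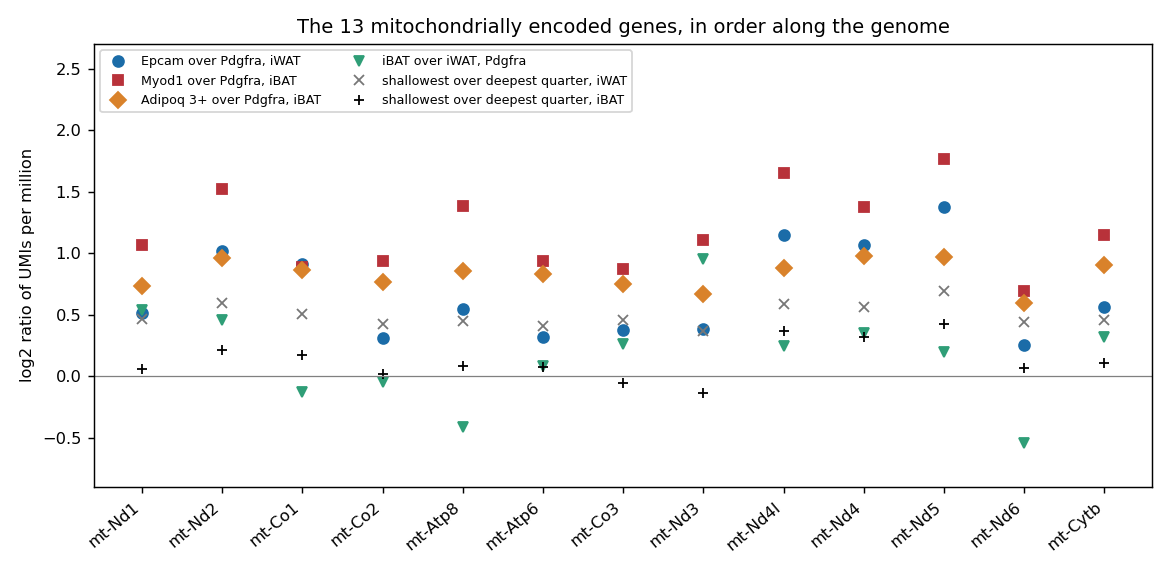
Log2 ratio of CPM for each of the 13 mitochondrial genes, in their order along the genome: 3 classes over the Pdgfra-positive cells of their library, iBAT over iWAT in Pdgfra-positive cells, and the shallowest over the deepest of 4 equal depth groups of Pdgfra-positive cells in each library. mt-Nd5, mt-Nd4l, mt-Nd4 and mt-Nd2 are high in the Myod1- and Epcam-positive cells, and mt-Nd3 stands out for iBAT over iWAT alone.

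Genes that work beside the chain were followed with lists that are not members. In the 82 cells with 3 or more Adipoq UMIs, 7 of 13 tested citric acid cycle genes were called higher and none lower, and the electron carrier genes Cycs, Cyc1, Etfa, Etfdh and Coq9 were also called higher. Of these Cyc1, Etfdh and Coq9, and of the citric acid cycle genes Dld and Fh1, reached 50 CPM only through the adipocyte side, and of the 11 citric acid cycle genes that reached it in the Pdgfra-positive cells 5 were called. Cyc1, the cytochrome c1 of complex III that the naming rule misses, had 84.0 CPM against 40.7, and Cycs, cytochrome c, 246 against 161. In the Myod1-positive cells 7 of 13 citric acid cycle genes were called higher and 1, Suclg2, lower, and 3 of 5 electron carriers were called higher (Cyc1 99.5 against 40.7, Cycs 305 against 161, and Coq9). Here too Cyc1, Etfdh, Coq9, Dld and Fh1 were tested only through the class side, and of the 11 other citric acid cycle genes 6 were called higher. Assembly factors had 3 of 10 tested genes called higher in the Myod1-positive and 5 of 13, with 1 lower, in the 82 Adipoq cells, and among the 8 that reached 50 CPM in the Pdgfra-positive cells 2 and 1 were called higher. The shares of all tested genes called higher and lower were 16.0% and 19.4% in the 82 Adipoq cells and 21.2% and 33.3% in the Myod1-positive cells. A list of 6 genes, all tested in each class, held adenine nucleotide and phosphate carriers and also Vdac3, a channel of the outer mitochondrial membrane. Slc25a5 was called higher in the 82 Adipoq cells (855 against 564). Slc25a4 was called lower in the Ptprc-positive cells of both libraries and Vdac3 lower in those of iWAT. The Ptprc-positive cells had 3 of 11 citric acid cycle genes called lower in iWAT and 1 of 11 in iBAT, and 4 of 8 and 1 of 9 assembly factors, where 29.2% of all tested genes were called lower in iWAT and 27.8% in iBAT, so the citric acid cycle counts lay near or below the background. In the Epcam-positive cells none of 11 citric acid cycle genes and none of 3 electron carriers was called, and of 10 assembly factors 1 was called higher (Pet100, tested only through the Epcam side) and 1 lower, against 13.5% and 17.4% of all tested genes. Between the depots, in Pdgfra-positive cells, the counts were 0 of 11, 0 of 2, and of 10 assembly factors 1 higher (Cox20) and 3 lower (Ttc19, Cox17 and Tmem70), against 8.21% and 8.19%.

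Regulators of the chain were low. Of 15 genes on the list, 1 to 3 passed the filter in each comparison named above. None was called except Gabpa, a subunit of the GABP factor, which was lower in the Ptprc-positive cells of both libraries (30.1 against 59.6 in iWAT, 46.8 against 74.0 in iBAT). The coactivators Ppargc1a and Ppargc1b were under the filter everywhere. Ppargc1a had 0.470 CPM in iWAT and 0.986 in iBAT Pdgfra-positive cells, 1.92 in the Epcam-positive, 8.83 in the Myod1-positive and 15.1 in the 82 Adipoq cells, the last from 35 UMIs. Ppargc1b had 3.04 and 2.16 in the Pdgfra-positive cells, 41.2 in the Myod1-positive cells (140 UMIs) and 17.7 in the 82 Adipoq cells (41 UMIs). Nrf1 stood at 21.1 and 24.0 in the Pdgfra-positive cells, 27.1 in the Myod1-positive and 24.1 in the 82 Adipoq cells, and Tfam, which packages mitochondrial DNA and helps start its transcription, between 33.6 and 42.1 in the Pdgfra-, Epcam-, Ptprc- and Myod1-positive and the 82 Adipoq cells. Esrra had 30.2 in the iBAT Pdgfra-positive, 45.0 in the Myod1-positive and 46.9 in the 82 Adipoq cells. Against the Pdgfra-positive cells, the genes for mitochondrial DNA and RNA handling gave 1 call higher, Lrpprc, which stabilizes mitochondrial messenger RNA, in the Myod1-positive cells (71.0 against 41.9, tested only through the Myod1 side), and 1 lower, Grsf1 in the Ptprc-positive cells of iWAT (log2 ratio -0.62). The mitochondrial polymerase Polrmt had 6.57, 8.83 and 12.1 in the iBAT Pdgfra-positive, Myod1-positive and 82 Adipoq cells.

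Within cells the picture was of the same order. The nuclear members took a median of 1.36% of the UMIs of a Pdgfra-positive cell in iWAT and 1.45% in iBAT, 1.44% in the Epcam-positive, 2.11% in the 82 Adipoq and 2.23% in the Myod1-positive cells. The mitochondrial genes took 5.45% and 6.42% in the Pdgfra-positive, 9.63% in the Epcam-positive, 10.5% in the 82 Adipoq and 12.7% in the Myod1-positive cells. The median cell of the last 3 classes thus lay above the median Pdgfra-positive cell of its library in both measures.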

How the data were processed

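Single-cell RNA was read with BD Rhapsody from 2 cultures, 1 library per depot, sequenced on a NovaSeq X Plus and aligned to mm39 with a cloud pipeline, whose version is not given in the sources used here. The submitters' processing notes name Seurat 5.0.0. The authors deposited raw UMI counts per gene and cell for each library. Those counts were summed per class in Python 3.11.15 (numpy 2.4.6, pandas 2.3.3, scipy 1.17.1) and scaled to CPM (per 1000000 UMIs). Cells were filtered and classed as the report states.

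With 1 library per depot no test was made. A gene was called at 1.5-fold or more with at least 50 CPM on at least 1 side, and the same rule over all genes gives the background shares. The calls and the intervals of ratios were tested on simulated summed counts with Poisson error. The summing and the classing of cells were not tested in this way. Depth was 503611913 UMIs in iWAT and 815235820 in iBAT. Doublets stayed in the main values: Scrublet (scanpy 1.11.5) marked 1152 iBAT cells (4.02%) but 0 iWAT cells, so for iWAT it did not work. edgeR 4.0.16 in R 4.3.3 served for TMM scaling only. Figures were drawn with matplotlib 3.10.9.

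The members, gene lists and rules were chosen with earlier results of these data known. Named genes were the 13 mitochondrial genes, the highest nuclear member per complex, the 5 highest and 5 lowest depot ratios, the 3 highest and 3 lowest of each class, paralogue pairs, complex II, Ndufa4, Uqcrfs1 and 11 regulators and carriers. Further genes were named after their values were seen. Promoters came from RefSeq (GRCm38.p6), and 81 of 83 nuclear members were matched to GENCODE on GRCm39 for shared 3′ words. Alternatives covered the cell filters, class rule, doublets, depth, denominator, weighting, scaling, expression filter and fold.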

Additional observations from a re-analysis of the deposited data

Results flagged for a closer look

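The summed level of the 13 mitochondrial genes moved in opposite directions under the same contrast in 2 places, and the difference was not tested in either, since each depot gave 1 library. In Ptprc-positive over Pdgfra-positive cells the log2 ratio of the sum was 0.13 in iWAT and -0.058 in iBAT. Against Pdgfra-positive cells of like depth the ratios were -0.085 and -0.098, both below an equal level, so the opposite directions were not seen at like depth. In iBAT over iWAT it was 0.15 in the Pdgfra-positive cells and -0.044 in the Ptprc-positive cells, which numbered 136 in iBAT and 124 in iWAT, and where TMM scaling gave -0.0014. The nuclear sum was higher in iBAT in both, with log2 ratios of 0.12 and 0.23.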

How the results depend on the processing

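No paired analysis was possible because each depot gave 1 library and no result comes from a test. For the depot sums and all counts of members, 207 values under alternatives stayed close to the reported one, 72 moved and 3 turned direction. Of 162 values of the class sums 5 turned direction, all for Ptprc-positive cells: the iWAT mitochondrial log2 ratio, 0.13, was -0.085 at matched depth, the iBAT nuclear one, -0.050, was 0.014 with TMM, 0.036 with cells of several lineages and 0.035 at matched depth, and the iBAT mitochondrial one, -0.058, was 0.0058 with TMM. The matched depth, the cells without the highest 8% of Scrublet scores, the comparison of cells with 3 or more Adipoq UMIs with all Pdgfra-positive cells and the depot comparison of Ptprc-positive cells were chosen after seeing the data. Leaving out Scrublet calls was run within iBAT only. Counting error is small at this depth, and the spread between libraries of 1 depot is not known.

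Over all kept cells the nuclear depot log2 ratio, 0.09, was 0.075 with cells under 15% mt- UMIs, 0.094 as a mean over cells, 0.061 with TMM scaling, 0.088 without the highest Scrublet scores, and reversed to -0.0012 at matched depth. The mitochondrial one, 0.0155, reversed to -0.10 as a mean over cells and to -0.0151 with TMM scaling, and was 0.080 under 15% mt- UMIs, 0.0116 with no upper limit on detected genes, 0.0166 with mt- UMIs left out of the total, 0.0174 without the highest Scrublet scores and 0.22 at matched depth. In Pdgfra-positive cells the nuclear ratio, 0.12, was 0.11, 0.13, 0.13 and 0.094 with the 15% limit, the total without mt- UMIs, the mean over cells and TMM, 0.15 with 3 or more UMIs of the marker, 0.11 without the highest Scrublet scores and 0.0099 at matched depth. The mitochondrial one, 0.15, was 0.20, 0.16, 0.079 and 0.12 with the same first 4, 0.14 with no upper limit on genes, 0.22 with 3 or more UMIs, 0.13 with cells of several lineages kept, 0.15 without the highest Scrublet scores and 0.26 at matched depth.

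The depot count of 1 member higher over all kept cells was 2 as a mean over cells and at matched depth. These are 2.41% and 2.44% of the tested members, against 9.83% and 10.4% of all tested genes. The count was 0 at 2-fold, against 3.64%. As a mean over cells 2 (2.41%) were lower, against 8.1%. In Pdgfra-positive cells the count higher was 2 (2.44%) under 15% mt- UMIs, 3 (3.66%) with 3 or more UMIs and 3 (3.66%) at matched depth. Of all tested genes 8.21%, 7.3% and 9.64% were called higher in these settings. The count was 0 at 2-fold, against 3.51%, and 2 (2.11%) were lower with no filter, against 19.2%. The Adipoq count of 0 higher was 55 (64.7%) with 3 or more UMIs, against 15.9% of all tested genes. With no filter 1 (1.06%) was lower, against 7.11%. The 55 were 18 under 15% mt- UMIs and 6 at 2-fold, where 13.4% and 9.46% of all tested genes were called higher. The Epcam count of 1 lower was 0 with the total without mt- UMIs, with cells of several lineages and at 2-fold, and 3 of 95 with no filter. In the main setting 17.4% of all tested genes were called lower. The Myod1 count of 63 higher was 38 under 15% mt- UMIs, 28 with cells of several lineages and 19 at 2-fold, where 20.5%, 12.1% and 14.4% of all were. With no filter 2 of 94 were lower, and in the main setting 33.3% of all tested genes were called lower. For Ptprc in iWAT, 2 higher was 0 with cells of several lineages and at 2-fold. The count of 3 lower was 7 of 80 with 3 or more UMIs, 1 with cells of several lineages, 6 of 94 with no filter, 1 at 2-fold and 1 at matched depth. In the main setting 22.8% of all tested genes were called higher and 29.2% lower. For Ptprc in iBAT, 1 was higher with no filter, and 2 lower was 1 with TMM, 0 with cells of several lineages, 5 of 94 with no filter, 0 at 2-fold and 0 at matched depth. In the main setting 21.1% of all tested genes were called higher and 27.8% lower. Between the depots in Ptprc-positive cells, the nuclear log2 ratio, 0.23, was 0.27 with TMM and 0.26 with 3 or more UMIs, and the mitochondrial one, -0.044, was -0.0014, -0.10 and -0.069 with TMM, 3 or more UMIs and cells of several lineages. There 6 higher was 10 of 83 with 3 or more UMIs and 1 of 82 at 2-fold. The count of 0 lower was 1 as a mean over cells, with 3 or more UMIs, with cells of several lineages, at a filter of 10 and without the highest Scrublet scores. It was 3 of 94 with no filter. In the main setting 11.8% of all tested genes were called higher and 15.1% lower. Matched depth left too few of these cells. Where only the main share of all genes is given, it is not the background of the other settings. That share moves with the setting: between the depots over all kept cells it was 8.96% higher in the main setting, 20.2% with no filter and 3.64% at 2-fold. The causes were not tested, beyond the smaller numbers of cells or genes that a filter leaves.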

Other observations

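Ribosomal protein genes were followed in the same cells. In the 82 cells with 3 or more Adipoq UMIs, 15 of 79 tested cytosolic ribosomal protein genes were lower at 1.5-fold and 1 was higher, with a median log2 ratio of -0.48, where 19.4% of all tested genes were lower and the median of all was -0.15, so the count lower is near the background. Of 36 tested mitochondrial ribosomal protein genes 2 were higher and none lower, with a median of 0.13, where 16.0% of all tested genes were higher. In the Myod1-positive cells 3 of 79 cytosolic genes were lower and none higher (median -0.27), where 33.3% of all tested genes were lower and the median of all was -0.18, and of 38 mitochondrial ones 5 were higher and 4 lower (median 0.10), where 21.2% of all were higher.

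Across the 13 mitochondrial genes, the log2 ratios of Epcam-positive cells in iWAT and Myod1-positive cells in iBAT over their Pdgfra-positive cells had a Spearman rho of 0.819. Between the Epcam-positive ratios and the ratio of the shallowest over the deepest of 4 equal depth groups of Pdgfra-positive cells in iBAT, a library they do not share, rho was 0.863, and for the Myod1-positive ratios and that of iWAT it was 0.615. The genes share transcripts and base composition, so these are descriptions over 13 dependent points.

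Across single cells, the share of UMIs in nuclear members and that in mitochondrial genes had a Spearman rho of 0.634 in the 82 Adipoq cells and 0.588 in the 174 Myod1-positive cells, against 0.091 in the Pdgfra-positive cells of iBAT and 0.190 in those of iWAT. It was 0.046 in the Epcam-positive cells, 0.163 in the 235 cells with 1 or 2 Adipoq UMIs, and 0.155 and 0.151 in the Ptprc-positive cells of iWAT and iBAT. The cells of a class share 1 library, and both shares have the same total.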
